A study of Arabidopsis thaliana with 6 samples.

Results

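The CrRLK1L family is a group of plant receptor kinases named after a Catharanthus roseus protein. The best known member, FERONIA, is encoded by FER. The genes described here are 10 relatives of FERONIA listed by locus. A gene was kept if the platform annotation gave it a probe set of its own, and where a gene had several, the probe set with the highest mean over all 6 arrays was to be used. On this rule 7 of the 10 were measured, each by 1 probe set, among 13333 genes with a probe set of their own. The measured genes were AT5G59700, AT5G24010, AT2G23200, AT4G39110, AT2G21480, AT5G39020 and AT5G39030. No probe set was assigned to AT5G61350 (ERULUS), a kinase of root hair growth, in the annotation used here, and AT5G38990 and AT5G39000 share 1 probe set, so these 3 genes were dropped.

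The RNA came from shoots of Arabidopsis thaliana seedlings of the Landsberg (LER-0) ecotype. The seedlings were raised without light in sealed canister hardware, which was carried on a space shuttle for the Spaceflight group, and their tissue was kept in RNAlater. The labels give 3 arrays as Spaceflight and 3 as Ground Control, each with the replicate numbers 2, 3 and 4, and name no genotype, age or treatment that sets the groups apart. The labels are silent on whether a group's arrays stem from different dishes, and the p-values cover only array-to-array spread, which could be technical. In whole shoots, fewer cells of a type and less RNA per cell cannot be told apart.

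CrRLK1L kinases sit in the plasma membrane. Their outer part holds malectin-like domains that face the cell wall, and their inner part is a kinase. Several bind small secreted RALF peptides together with LORELEI-type co-receptors, and leucine-rich repeat extensins hold RALF peptides in the wall. The family is known for sensing the state of the wall during growth, with THESEUS1 (THE1) first described in dark-grown hypocotyls short of cellulose, and for guarding the tip of the growing pollen tube and root hair.

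The 7 measured receptor kinase genes did not pass the test between flight and ground. In limma, fitted over all 22746 probe sets and with p-values adjusted by the Benjamini-Hochberg method, 0 of 7 were higher and 0 of 7 lower at an adjusted p under 0.05. Of all probe sets, 4.13% were higher and 1.82% lower by this rule, or 939 and 413 probe sets. With arrays centred on their hybridization spike-ins these were 470 and 363. At an unadjusted p under 0.05, 2 of the 7 passed, AT5G24010 and AT5G59700, against 21.0% of all probe sets. The log2 changes of the 7 ran from -0.44 to 0.88 with a median of 0.22, and 5 were above 0 and 2 below. The median over all probe sets was -0.02.

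Most of these genes gave dim readings. For 5 of the 7, the mean over all arrays lay below 2.23, the median of that mean over all probe sets (log2 scale of the deposited values). Among probe sets below that median, 0.906% passed the test in either direction. The files give no detection calls, so a reading at this level cannot be called expressed or not. The dim 5 are AT5G59700, AT4G39110, AT2G21480, AT5G39020 and AT5G39030, and the brighter ones are AT5G24010 and AT2G23200. The array's probes were designed on another accession, Columbia, and the effect of Landsberg sequence on these readings was not tested.

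**Figure D1:**
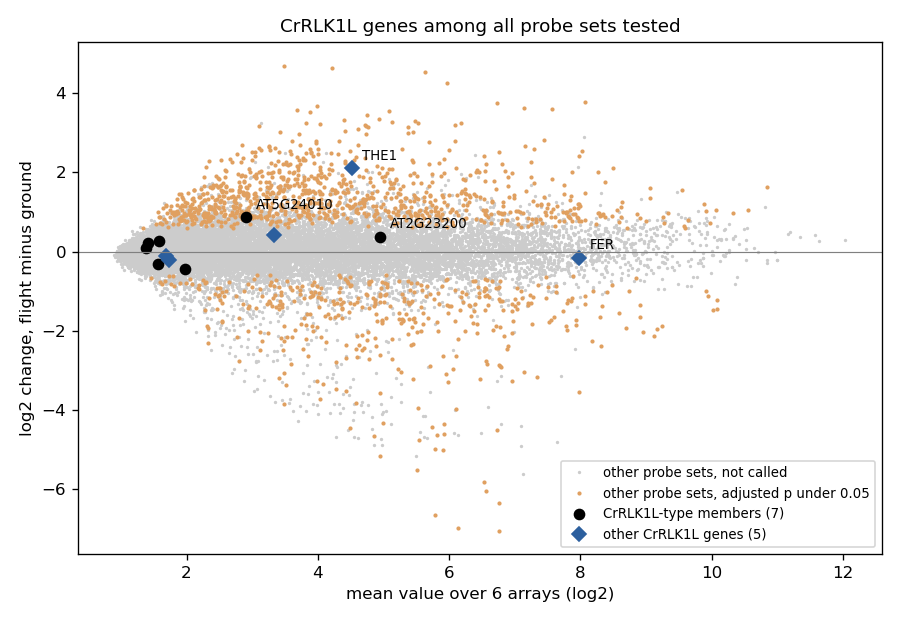
Log2 change, flight minus ground, against the mean value over 6 arrays (log2) for all 22746 probe sets tested. Black points are the 7 measured receptor kinase genes, blue diamonds 5 other CrRLK1L genes, and orange points probe sets with an adjusted p under 0.05. All 7 black points lie between -0.44 and 0.88, while THE1 stands at 2.11.

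AT5G24010 showed the largest difference of the 7. No role is given for it here. Its values were 3.26, 3.09 and 3.68 in flight replicates 2, 3 and 4 and 2.46, 2.98 and 1.96 in ground replicates 2, 3 and 4 (log2). Every flight array lay above every ground array, though flight replicate 3 exceeded ground replicate 3 by little. Groups that do not overlap were seen for 2 of the 7 genes and for 26.0% of all probe sets. The mean was 3.35 ± 0.30 in flight and 2.47 ± 0.51 on the ground (SD, n = 3). The log2 change was 0.88 (SE 0.28, 95% interval 0.21 to 1.54), a 1.84-fold higher value in flight, with a limma adjusted p of 0.133. The lowest reading, in ground replicate 4, stood on the array whose spike-in mean was 9.61 against 10.13 to 10.20 on the others. With spike-in centring the change was 0.72, and without ground replicate 4 it was 0.62.

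AT2G23200, known in the literature as LETUM1, takes part in the control of plant immune receptors. It was above the median of its array on all 6 arrays. It read 5.36, 5.39 and 4.64 in flight replicates 2, 3 and 4 and 5.04, 4.86 and 4.35 in ground replicates 2, 3 and 4. Replicate 4 was the lowest of each group, and the groups overlapped. In flight the gene differed by a log2 change of 0.38 (SE 0.27, 95% interval -0.25 to 1.01), with a limma adjusted p of 0.489. It was 0.63 without flight replicate 4, 0.18 without ground replicate 4 and 0.08 with the mean of 3 seed storage genes as a covariate.

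AT5G59700 had the largest difference downward. Its values were 1.58, 1.71 and 1.95 in flight replicates 2, 3 and 4 and 2.17, 1.94 and 2.46 in ground replicates 2, 3 and 4. The groups overlapped at flight replicate 4 and ground replicate 3. This gave a log2 change of -0.44 (SE 0.18, 95% interval -0.88 to -0.01), with a limma unadjusted p of 0.0478 and an adjusted p of 0.232. Without ground replicate 4, which held the highest reading, the change was -0.31 (limma adjusted p 0.409). Without ground replicate 3 it was -0.57, and with spike-in centring it was -0.59. All 3 flight readings lay below the median of their own array, and ground replicates 2 and 4 lay above theirs.

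AT4G39110 and AT2G21480 are a pair of close relatives known in the literature as BUPS1 and BUPS2, which act with ANX1 and ANX2 in pollen tubes. Shoots of seedlings hold no pollen, and all 12 readings of the pair lay below the median of their array. AT4G39110 read 1.23, 1.39 and 1.61 in flight replicates 2, 3 and 4 and 1.37, 1.87 and 1.91 in ground replicates 2, 3 and 4. AT2G21480 read 1.44, 1.47 and 1.68 in flight and 1.65, 1.13 and 1.15 on the ground, in the same order. Ground replicates 3 and 4 therefore held the highest values of the first gene and the lowest of the second. The same arrays had a mean of 8.44 and 8.53 over 3 seed storage genes, against 1.78 to 4.96 on the other 4 arrays.

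The log2 change was -0.30 (SE 0.20, limma adjusted p 0.450) for AT4G39110 and 0.22 (SE 0.19, adjusted p 0.572) for AT2G21480. With the seed storage mean as a covariate they were -0.05 (adjusted p 0.920) and 0.05 (0.933). The changes of the pair differed by -0.52, with an exact two-sided permutation p of 0.40 over the 20 ways to split 6 arrays. Without ground replicate 2 the difference was -0.87, without ground replicate 3 it was -0.36 and without ground replicate 4 it was -0.35. The smallest p that 3 arrays against 3 allow is 0.10. The arrays with the lowest seed storage means were flight replicates 2 and 3 and ground replicate 2, and on these alone the difference was 0.14, in the opposite direction. That set holds a single ground array, and a link between the pair and seed storage was not tested.

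AT5G39020 and AT5G39030 belong to a row of related genes on chromosome 5 that also holds AT5G38990 and AT5G39000 (neighbours in the RefSeq annotation of assembly TAIR10.1). The 4 genes are known in the literature as MEDOS1 to MEDOS4, which have been tied to growth responses to metal ions. AT5G39020 read 1.80, 1.69 and 1.63 in flight replicates 2, 3 and 4 and 1.32, 1.41 and 1.59 in ground replicates 2, 3 and 4. The groups did not overlap, by a small gap between flight replicate 4 and ground replicate 4. Between the group means lay a log2 change of 0.27 (SE 0.14, 95% interval -0.06 to 0.60, limma adjusted p 0.342), and with spike-in centring it was 0.12.

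AT5G39030 read 1.55, 1.51 and 1.24 in flight and 1.37, 1.02 and 1.62 on the ground, in the order of replicates 2, 3 and 4. The groups overlapped fully, with the lowest and the highest reading both on the ground. The log2 change was 0.09 (SE 0.19, limma adjusted p 0.840). The changes of AT5G39020 and AT5G39030 differed by 0.18, with an exact two-sided permutation p of 0.30. The difference was 0.32 without ground replicate 3, 0.10 without ground replicate 2, 0.11 without ground replicate 4 and 0.12 without flight replicate 4. The probe set shared by AT5G38990 and AT5G39000, assigned to neither, read 1.95, 1.85 and 2.02 in flight and 1.87, 2.03 and 2.29 on the ground, with a log2 change of -0.12 (limma adjusted p 0.720). Whether the probes of this row of genes also bind each other's transcripts was not tested.

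**Figure D2:**
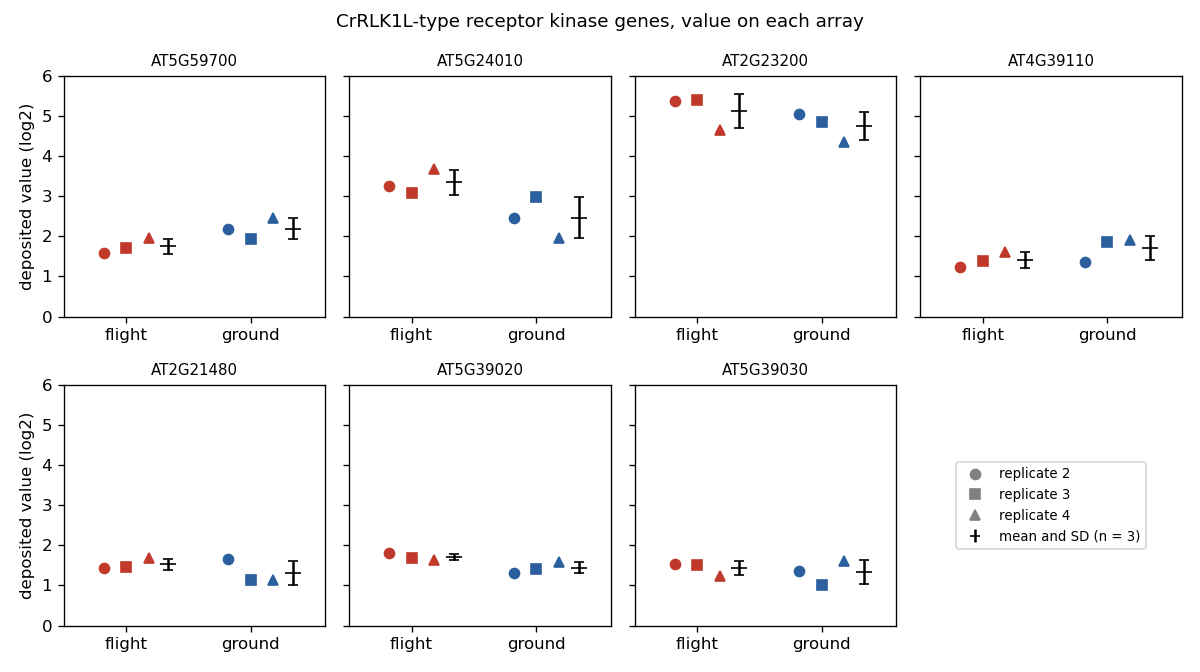
Deposited log2 values of the 7 measured receptor kinase genes on each array, with flight in red and ground in blue. Marker shape gives the replicate number and bars the mean and SD over 3 arrays. The flight and ground points overlap for all genes but AT5G24010 and AT5G39020, and AT2G23200 is the only one of the 7 to reach 5.

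Other CrRLK1L genes give the background for these values. Of 7 further family members listed, 5 had a probe set of their own, and of these 1 rose in flight and 0 fell. The shares over all probe sets were 4.13% higher and 1.82% lower at an adjusted p under 0.05. The gene that rose was THE1 (AT5G54380), which encodes the wall sensor THESEUS1. It read 5.68, 5.58 and 5.48 in flight replicates 2, 3 and 4 and 3.62, 3.45 and 3.36 in ground replicates 2, 3 and 4. The 2 groups stood clearly apart, with little spread within either. The log2 change was 2.11 (SE 0.14, 95% interval 1.78 to 2.44), a 4.31-fold higher value in flight, with a limma adjusted p of 0.00219. THE1 passed in 9 of 9 alternatives that changed the fit, scaling or set of arrays and in 6 of 6 that left out 1 array, with changes of 1.95 to 2.18.

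FER (AT3G51550) encodes FERONIA, the receptor of RALF1, and read 8.12, 7.93 and 7.67 in flight and 8.06, 8.07 and 8.05 on the ground, in the order of replicates 2, 3 and 4. Its ground arrays were almost level and the flight arrays spread to both sides of them. The log2 change was -0.15 (SE 0.16, 95% interval -0.52 to 0.22, limma adjusted p 0.654). AT2G39360 had a change of 0.41 (adjusted p 0.366), and the pollen tube receptor genes ANX1 and ANX2 had changes of -0.10 (0.770) and -0.22 (0.654). ANX1 and ANX2 read below the median of their array on all arrays, as their partners AT4G39110 and AT2G21480 did.

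The difference in change between THE1 and its relatives was computed for AT5G24010, the gene of the 7 with the largest change, and for FER. Both pairs were chosen after the values were seen. The change of THE1 exceeded that of AT5G24010 by 1.23 and that of FER by 2.26 on the log2 scale, each with an exact two-sided permutation p of 0.10, the smallest that the design allows. With 1 array left out, the difference from AT5G24010 ran from 0.96 without ground replicate 3 (exact permutation p 0.20) to 1.44 without flight replicate 4 (0.10). The 95% interval of THE1 began at 1.78, above the upper bounds of all 7 listed relatives, of which the highest was 1.54 in AT5G24010. THE1 was likewise picked for this comparison because it had passed and the 7 had not. The permutation p-values and the gap between intervals are therefore a description and not a test.

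**Figure D3:**
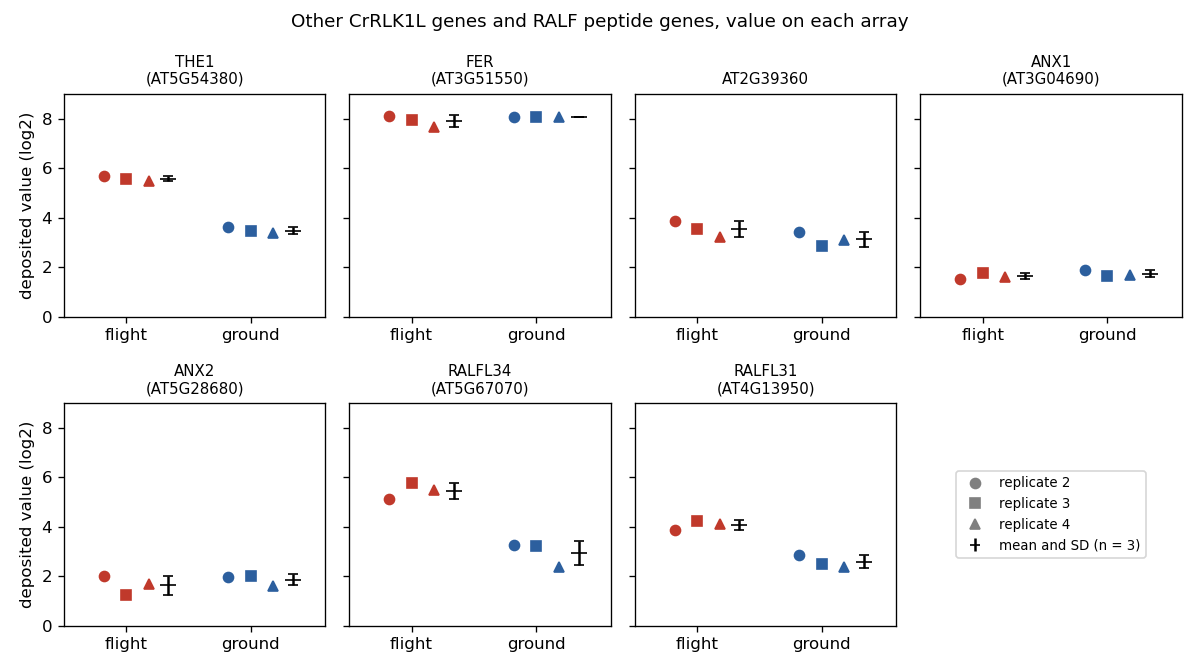
Deposited log2 values of 5 other CrRLK1L genes and of the RALF peptide genes RALFL34 and RALFL31 on each array, drawn with flight in red and ground in blue. Bars give the mean and SD over 3 arrays. THE1, RALFL34 and RALFL31 lie higher on all 3 flight arrays, and FER stays between 7.67 and 8.12 on all 6.

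The list of other genes of the pathway held 59 loci, of which 20 had a probe set of their own, and 3 of the 20 rose and 0 fell. The other 39 were not assigned one in the annotation used here, and whether the array carries probes for them was not checked. Of all probe sets, 4.13% were higher and 1.82% lower by the same rule. The 3 genes that rose were THE1 and the genes of 2 RALF peptides, the ligands of this family. RALFL34 (AT5G67070) encodes the peptide RALF34, a known ligand of THESEUS1, and changed by 2.50 (SE 0.28, limma adjusted p 0.00651). RALFL31 (AT4G13950) changed by 1.49 (SE 0.18, adjusted p 0.00828). The changes of the 6 measured RALF genes ran from 0.59 to 2.50, and 4 of them did not pass. The listed relatives, with a median change of 0.22, stood beside a median of 0.85 in the RALF genes and 0.21 in the leucine-rich repeat extensins.

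Of 8 measured leucine-rich repeat extensin genes, which encode wall proteins, 0 passed the limma test, which called 4.13% of all probe sets higher and 1.82% lower. At an unadjusted p under 0.05, 3 of the 8 passed, against 21.0% of all probe sets. The largest change among the 8 was that of AT3G24480, at 1.23 (SE 0.36, adjusted p 0.104). Of 4 co-receptor genes, 0 were assigned a probe set of their own in the annotation used here. Of 19 genes that act further downstream, 1 was, AT2G41970, with a change of 0.01 (adjusted p 0.974).

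**Figure D4:**
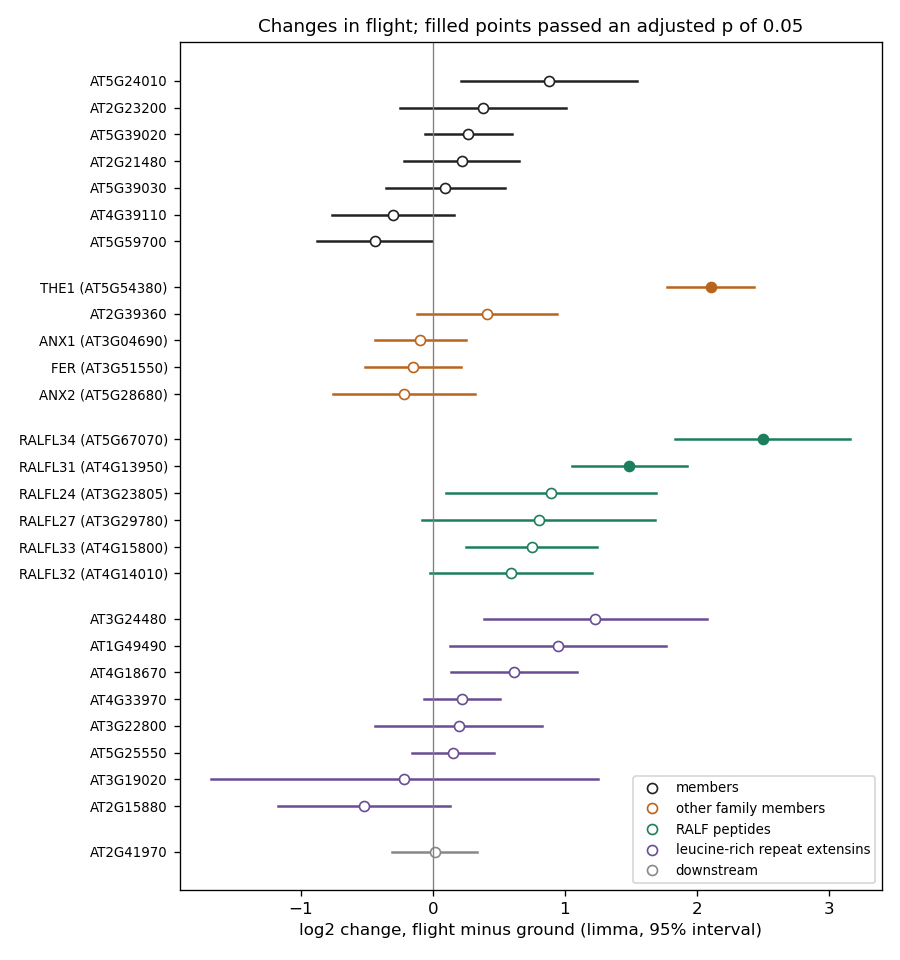
Log2 change, flight minus ground, with the 95% interval from limma, for the 7 listed receptor kinase genes and the 20 measured genes of the pathway list, by role. Filled points passed an adjusted p of 0.05; these are THE1, RALFL34 and RALFL31, and all 7 receptor kinase genes at the top have open points.

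AT5G24010 was also set against all other genes with a probe set of their own, 13332 in number, by Pearson correlation over the 6 arrays, which share their group difference. The 5 most alike were AT2G27060 (r = 0.993), AT5G25550 (0.988), FATB (0.988), AT1G72490 (0.987) and XTH19 (0.987). Of these, AT5G25550 is one of the listed leucine-rich repeat extensin genes, FATB encodes a fatty acyl thioesterase of the plastid, and XTH19 a xyloglucan endotransglucosylase. AT5G25550 gave dim readings of 1.11 to 1.43, below the median of its array on all 6 arrays. The adjusted p of the 5 genes in limma ran from 0.0814 in XTH19 to 0.579 in AT5G25550. These values are a description of 6 arrays only.

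Marker genes were checked for other tissues. The 2 measured root hair genes of 8 listed, EXPA7 and EXPA18, read 0.96 to 1.89 on all arrays, below the array medians of 2.15 to 2.24. Of 11 pollen genes, 4 were measured, with list means of 2.01 to 2.19 in flight and 1.91 to 2.09 on the ground. These means do not stand for each gene. TUA1 read 3.528 to 3.835, above the median of its array on all arrays. ACT11, ACT12 and AT5G07430 read 0.82 to 1.85, below the median of their array on all arrays. Of 11 seed storage genes, 3 were measured, with list means of 1.81 to 4.96 in flight and 1.78 to 8.53 on the ground. In the annotation used here, none of the 13 dark-grown shoot markers and 7 root markers was assigned a probe set of its own (0 of 13 and 0 of 7). Whether the array carries probes for them was not checked. The tissue label was therefore not checked against these markers.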

How the data were processed

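Shoot RNA of flown and ground seedlings was profiled on 3 Affymetrix arrays each (6 in all; ATH1 design). The deposited table holds 22810 probe sets, with values taken as log2 as deposited by the authors. Per the submitters' processing notes RMA, PLIER and MAS5 were named; the method behind these values is not stated in the labels. The log base was read from the range, 0.63 to 12.98, and the values were not normalized again. The number of arrays limits the precision.

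After 64 control probe sets were left out, limma 3.58.1 under R 4.3.3 tested flight against ground (two-sided, no covariate, adjusted over all 22746 probe sets, called under 0.05), a procedure tested on simulated data. SE and 95% intervals are limma's moderated ones. Genes were matched to RefSeq loci (TAIR10.1) through gene identifiers in the platform annotation; no coordinates are given, since the files name no build. Changes of gene pairs were compared with exact permutation tests; the planned pair AT5G38990 and AT5G39000 could not be tested. The genes, lists, tests and alternatives were chosen with earlier results of these data known. All listed genes are named, with every called pathway gene, the largest change of each role, the 5 genes most like AT5G24010 in pattern and all measured family members, the last added later. Figures used matplotlib 3.10.9 in Python 3.11.15.

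Replicate numbers were checked for pairing: deviations from group means correlated at 0.20, -0.03 and 0.27 between arrays numbered 2, 3 and 4. Between flight and ground arrays of different numbers the correlations were -0.39 to 0.23, so the arrays were not taken as pairs. No arrays were identical (r of 0.895 to 0.982).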

Additional observations from a re-analysis of the deposited data

How the results depend on the processing

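The count of 0 called among the 7 listed genes was the same under quantile normalization, median centring, spike-in centring, a trended and robust prior, array weights, the seed storage covariate, thresholds of 0.10 and 0.01, each array left out and a reduced set of 3 arrays (flight replicates 2 and 3, ground replicate 2). An unadjusted p under 0.05, a rule added after seeing the data, passed 2 of the 7 and 8 of the 20 pathway genes. That rule passed 21.0% of all probe sets. Leaving out dim probe sets kept 2 of the 7 in the fit, and 0 passed. With the replicate block, 0 of the 7, 3 pathway genes and 1106 probe sets passed, 942 of them among the 1352 called without it; it changed no call of the 7 or of the pathway genes. Of small changes, that of AT2G21480 turned to -0.20 on the reduced set, and that of AT5G39030 to -0.061 with spike-in centring, with a range of -0.066 to 0.23 when 1 array was left out. The difference between AT4G39110 and AT2G21480 was 0.14 on that set. RALFL31 had a change of 1.18 there and missed the threshold (adjusted p 0.0928). The cause was not tested. The adjusted p of AT5G24010 ran from 0.0625, without ground replicate 3, to 0.333, without flight replicate 4. The count over all probe sets, 1352, was 833 after centring on spike-ins, 716 with seed storage as covariate, 633 on the reduced set, 2282 and 258 at thresholds of 0.10 and 0.01, 4780 unadjusted, and 271 (without flight replicate 3) to 1906 (without ground replicate 2) with 1 array left out. The mean over several probe sets was not run, as each gene had 1. Dim readings limit what can be said of 5 of the 7 genes.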
